A study of Mus musculus with 6 samples.

Results

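The genes described are 9 genes of the FoxO and sestrin axis: the forkhead factors *Foxo1*, *Foxo3* and *Foxo4*, the sestrins *Sesn1*, *Sesn2* and *Sesn3*, and *Txnip*, *Ccng2* and *Klf6*. They were chosen by name, as the entries of the deposited expression table whose gene symbol equals one of these, and all 9 were found among its 46959 entries. RNA came from haematopoietic stem cells (HSCs) of mouse bone marrow, sorted as lineage- Sca-1+ c-Kit+ CD150+ CD48- cells, with about 2000 cells pooled from 2 mice in each library. There were 3 libraries from littermate controls and 3 from MaeaCsf1r-Cre mice, in which floxed alleles of *Maea*, a subunit of the CTLH ubiquitin ligase, are deleted by the *Csf1r*-Cre transgene. The series gives an age of 8 weeks for both groups, and the transgenic line had been backcrossed to C57BL/6. Whether the control pools carried Cre is not given in the sources used here. The *Csf1r* promoter is classically active in mononuclear phagocytes, so macrophages of these mice lose *Maea* as well as the HSCs. Levels are given as CPM, the reads of a gene for every 1000000 reads behind the scaling of its library, with control replicates 1, 2 and 3 always named first.

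FoxO factors are transcription factors held in the cytoplasm when phosphatidylinositol 3-kinase and AKT are active and free to enter the nucleus when growth factor signalling is low. In HSCs they are known for supporting quiescence and resistance to oxidative stress, with FoxO3 the member most studied there. Sestrins are stress-induced proteins that restrain mTORC1 through the GATOR complexes. *Sesn1* and *Sesn3* are known FoxO targets, though FoxO factors are not their only regulators. Known regulators of *Sesn2* include p53, ATF4 and NRF2.

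*Maea* itself was at 108, 116 and 123 CPM in control and at 76.9, 88.6 and 101 CPM in MaeaCsf1r-Cre libraries. The groups did not overlap, as for 6.06% of all tested genes with MaeaCsf1r-Cre lower. Reads over the whole gene do not separate the deleted exons. Of the 10 HSC markers listed, all 10 were above the level needed for testing in these libraries, *Kit* among them. Their summed level was between 1124 and 1803 CPM in control and between 781 and 1467 CPM in MaeaCsf1r-Cre libraries, highest in control replicate 2 and lowest in MaeaCsf1r-Cre replicate 1. These are bulk libraries, in which fewer cells expressing a gene and less RNA of it in each cell cannot be told apart.

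None of the 9 genes passed the test between the groups. The values were compared as log2(CPM + 1) with limma's moderated test, with Benjamini-Hochberg adjustment over all 12955 genes at or above 1 CPM in at least 3 libraries, at a threshold of 0.05. The adjusted p was between 0.967 and 0.979. In a second fit, with replicate numbers as blocks since same-numbered libraries deviated together, 0 of the 9 passed either, with adjusted p between 0.218 and 0.885. The background was as low, since 1 gene of all those tested, or 0.00772%, was called in each fit. *Maea* itself was not called in either fit, at a log2 fold change of -0.39 ± 0.13 (SE) and adjusted limma p values of 0.967 and 0.218. At an unadjusted p under 0.05, 517 genes differed without the block and 1805 with it. *Sesn1* was the 1 gene of the 9 that was lower at that level without the block, against 3.19% of all tested genes. With the block there were 4, *Sesn1*, *Foxo3*, *Txnip* and *Sesn3*, against 10.8%. All 9 log2 fold changes lay below 0, as did 60.9% of all those tested, and that of *Sesn2* lay above 0 after quantile normalization, at 0.035. The median over the 9 genes was -0.36, and over all tested genes it was -0.06.

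**Figure D1:**
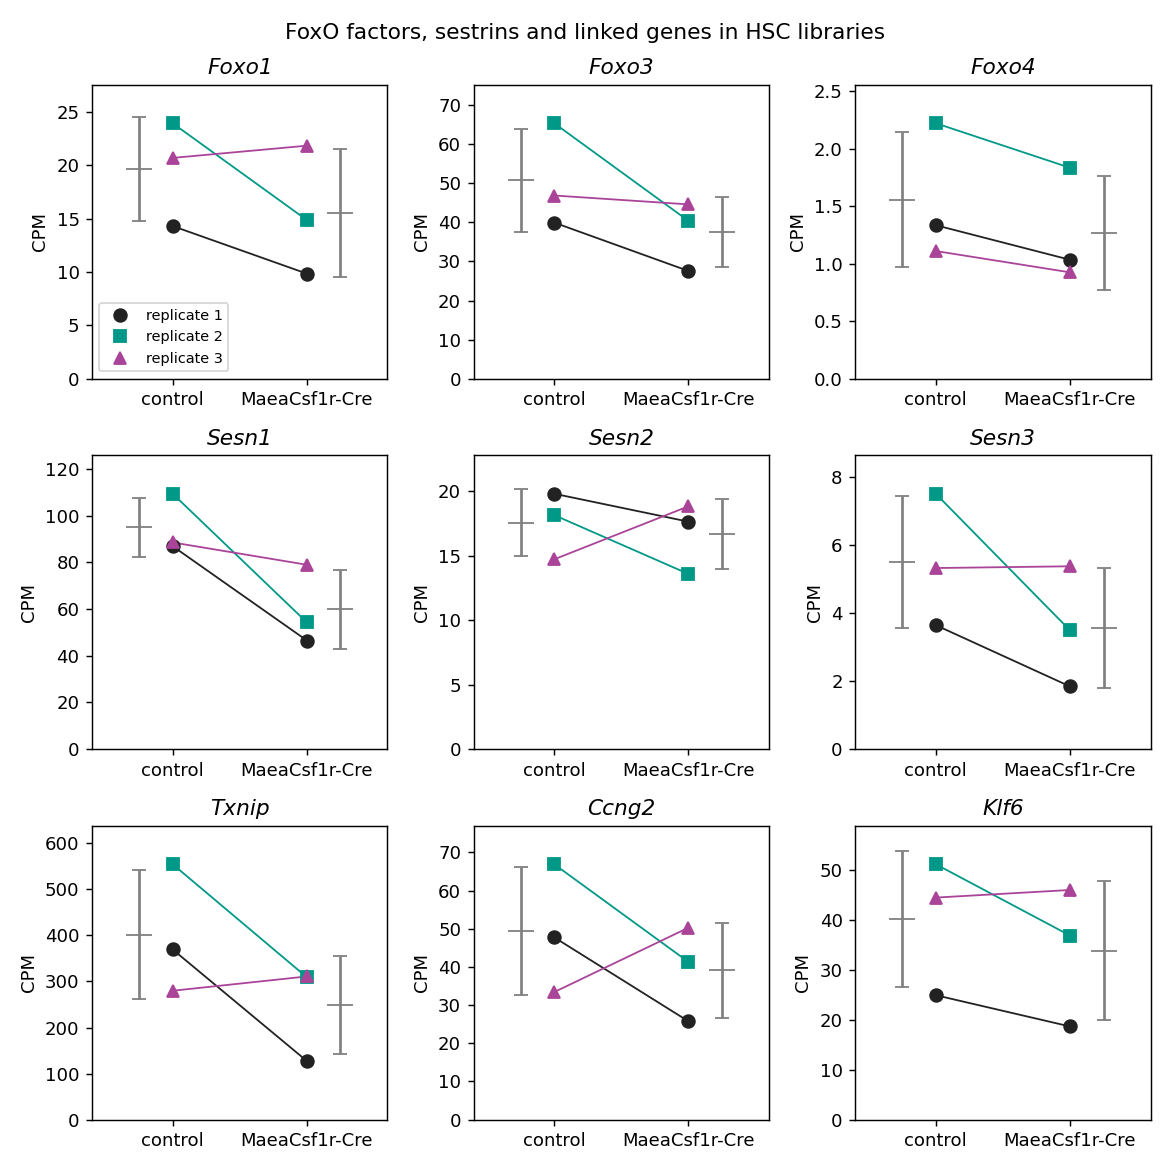
Level of each gene in CPM (vertical axis, from 0) in the 3 control and 3 MaeaCsf1r-Cre libraries, with same-numbered libraries sharing a colour and joined by a line, and with the group mean and SD as grey bars beside the points. *Sesn1* is the 1 panel in which the groups do not overlap, and replicate 2 of the control group is the highest point in 8 of the 9 panels.

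*Foxo3* lies on chromosome 10 of GRCm38 from 42181841 to 42276755, on the minus strand. It was at 39.9, 65.4 and 46.9 CPM in control and at 27.6, 40.4 and 44.6 CPM in MaeaCsf1r-Cre libraries. The groups overlapped, because 2 MaeaCsf1r-Cre libraries lay above control replicate 1, while each MaeaCsf1r-Cre library lay below the control library of the same number. The means were 50.7 ± 13.1 and 37.5 ± 8.88 CPM (SD, n = 3 each). In log2 terms the fold change of *Foxo3* was -0.42 ± 0.24 (SE), with a limma p of 0.112 without the block and 0.0181 with it, and adjusted p values of 0.967 and 0.275.

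*Foxo1*, on chromosome 3 from 52268336 to 52353221, was at 14.3, 24.0 and 20.7 CPM in control and at 9.85, 14.9 and 21.9 CPM in MaeaCsf1r-Cre libraries. MaeaCsf1r-Cre replicate 1 was the lowest library, and MaeaCsf1r-Cre replicate 3 was above 2 of the 3 control libraries. This gave a log2 fold change of -0.36 ± 0.30 (SE). Its antisense neighbour *Gm20402* reached 0.222 CPM at most. *Foxo4*, on the X chromosome from 101254528 to 101260873, was the least abundant of the 3 tested factors, at 1.33, 2.22 and 1.11 CPM in control and at 1.03, 1.83 and 0.925 CPM in MaeaCsf1r-Cre libraries. It was lower in each MaeaCsf1r-Cre library than in its same-numbered control, though the groups overlapped, and its log2 fold change was -0.17 ± 0.27 (SE). A signal of 3 reads was worth between 0.0492 and 0.0910 CPM in these libraries, so *Foxo4* was measured above that level in each of them. *Foxo6*, the remaining family member, was at 0.364, 0.151 and 0 CPM in control and at 0, 0 and 0.158 CPM in MaeaCsf1r-Cre libraries and was not tested.

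The makeup of the FoxO family was compared per length, as CPM per kilobase of merged exons. *Foxo3* made up 72.2, 71.7 and 69.6% of the summed level of the 3 tested factors in control and 71.7, 70.4 and 67.9% in MaeaCsf1r-Cre libraries. *Foxo1* made up between 22.4 and 29.1%, and *Foxo4* between 3.06 and 6.95%. The ranges of the groups overlapped for all 3 shares, and *Foxo3* was the most abundant of the 3 per length in every library.

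*Sesn1* stood apart from the other 8 genes in that its level was lower in every MaeaCsf1r-Cre library than in every control library. It encodes sestrin 1, which like sestrin 2 binds GATOR2, and it lies on chromosome 10 from 41809935 to 41908424, on the plus strand. It was at 87.0, 109 and 88.6 CPM in control and at 46.6, 54.3 and 79.0 CPM in MaeaCsf1r-Cre libraries. Across all genes tested, 6.06% had groups that did not overlap with MaeaCsf1r-Cre lower, so a single gene among 9 is near what that share gives. The means were 94.99 ± 12.5 and 60.0 ± 16.9 CPM (SD, n = 3 each). In log2 terms the fold change of *Sesn1* was -0.68 ± 0.20 (SE), with a limma p of 0.0105 without the block and 0.00397 with it, and adjusted p values of 0.967 and 0.218. A log2 fold change below this was found for 3.16% of the tested genes.

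RefSeq gives *Sesn1* a pair of start sites in GRCm38.p6, and the window around one of them holds the core letters bound by FoxO factors, GTAAACA, read on either strand. They begin 22 bases after the start, and the stretch is printed, with these letters in capitals in their reverse orientation, because *Sesn1* is the gene whose groups did not overlap. It lies at chr10:41810586-41810612 on the plus strand.
Sesn1: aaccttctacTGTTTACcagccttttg
Of all 32851 RefSeq windows of this kind, which run from 250 bases before a start to 50 bases after it, 3.65% hold these letters. They were found in 2 of the 9 windows of the 8 genes that have one, those of *Sesn1* and *Txnip*. A match of letters is a description of sequence, not of binding.

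*Sesn2*, on chromosome 4 from 132492032 to 132510501, was at 19.8, 18.2 and 14.7 CPM in control and at 17.6, 13.6 and 18.8 CPM in MaeaCsf1r-Cre libraries. The groups overlapped almost entirely. Its log2 fold change was -0.07 ± 0.19 (SE), with a 95% interval from -0.52 to 0.37, so a fall or rise of about that size was not excluded at this number of libraries. Its sign was above 0 under 7 of its 18 alternatives, among them quantile normalization, at 0.035. *Sesn3*, on chromosome 9 from 14275067 to 14333101, is known as a FoxO target in many cell types. It was at 3.64, 7.50 and 5.32 CPM in control and at 1.84, 3.49 and 5.37 CPM in MaeaCsf1r-Cre libraries. The groups overlapped through MaeaCsf1r-Cre replicate 3, which was level with its same-numbered control. The log2 fold change was -0.54 ± 0.35 (SE). The limma p was 0.164 without the block and 0.0499 with it, with adjusted p values of 0.967 and 0.358. With the length correction joined to the block the log2 fold change was -0.35 ± 0.21 (SE).

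The 3 sestrins were then compared by their shares of the summed CPM per kilobase. *Sesn1* made up 78.6, 82.8 and 82.9% in control and 69.2, 76.7 and 77.5% in MaeaCsf1r-Cre libraries. *Sesn2* made up 20.5, 15.7 and 15.8% in control and 30.1, 22.0 and 21.2% in MaeaCsf1r-Cre libraries. Both shares were therefore separated between the groups, the *Sesn1* share lower and the *Sesn2* share higher in each MaeaCsf1r-Cre library than in any control library. The levels of *Sesn2* themselves overlapped. *Sesn3* made up between 0.714 and 1.48%. With the longest transcript in place of merged exons the *Sesn1* share was 81.5 ± 2.20% in control and 74.7 ± 4.26% in MaeaCsf1r-Cre libraries (SD, n = 3 each). An exact two-sided permutation test of the *Sesn1* share gave p = 0.1, the smallest that 3 libraries against 3 allow. Any fully separated share gives that value, so the test adds nothing to the separation. As *Sesn3* is so small, the shares of *Sesn1* and *Sesn2* are near complements, and their separation is a single observation. It draws on the same *Sesn1* levels whose lack of overlap is given above. How often such shares separate for other genes was not tested.

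**Figure D2:**
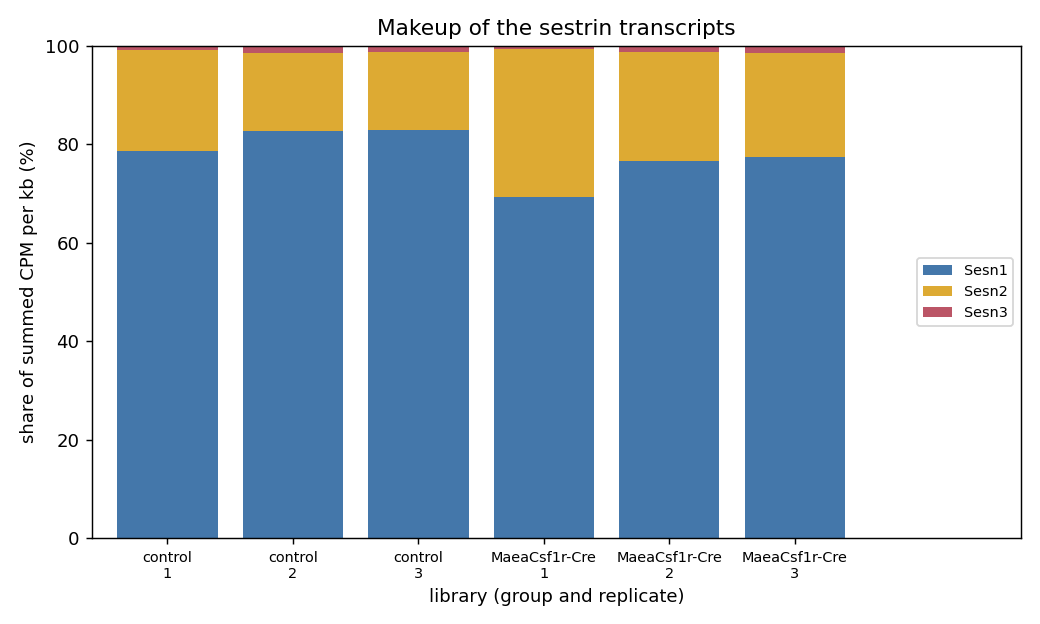
Share of each sestrin, in percent, of the summed CPM per kilobase of merged exons of *Sesn1*, *Sesn2* and *Sesn3* (vertical axis, stacked bars from 0 to 100), in each of the 6 libraries. The *Sesn1* share is between 78.6 and 82.9% in control and between 69.2 and 77.5% in MaeaCsf1r-Cre libraries.

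*Txnip*, the thioredoxin-interacting protein, binds thioredoxin and limits glucose uptake, and is a known target both of FoxO factors and of the glucose-sensing pair MondoA and MLX. Among the 9 genes it had the log2 fold change of greatest size in the fit of all 6 libraries, and also the largest standard error. It was at 369.5, 555 and 279.9 CPM in control and at 127, 309 and 311 CPM in MaeaCsf1r-Cre libraries. MaeaCsf1r-Cre replicate 1 was far below the other 5 libraries, and the other MaeaCsf1r-Cre libraries lay above control replicate 3, so the groups overlapped. The means were 401 ± 140.1 and 249 ± 106 CPM (SD, n = 3 each). In log2 terms the fold change of *Txnip* was -0.74 ± 0.38 (SE), with a limma p of 0.0867 without the block and 0.0276 with it, and adjusted p values of 0.967 and 0.300. Without MaeaCsf1r-Cre replicate 1 it was -0.31. The annotation places *Txnip* on chromosome 3 from 96557957 to 96561883, on the plus strand, where the antisense gene *Gm15441* overlaps it. This library kit does not mark strand, so reads of the 2 genes cannot be told apart where they overlap, and *Gm15441* was listed at between 0.448 and 0.936 CPM.

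The promoter of *Txnip* is printed because it holds both kinds of letters that its known regulators bind, and that of *Arrdc4*, an alpha-arrestin that is another known MondoA target, is printed beside it. For *Txnip* the stretch runs over chr3:96557807-96557906 on the plus strand, and for *Arrdc4* over chr7:68749359-68749458 on the minus strand, both 100 bases long and from RefSeq's GRCm38.p6. Capitals mark the FoxO core GTAAACA and boxes of the form CACGNG.
Txnip: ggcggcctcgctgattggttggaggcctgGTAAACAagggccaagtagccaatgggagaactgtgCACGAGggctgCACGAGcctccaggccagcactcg
Arrdc4: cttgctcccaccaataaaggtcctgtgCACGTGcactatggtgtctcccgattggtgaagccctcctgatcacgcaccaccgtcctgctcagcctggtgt
In *Txnip* the FoxO core begins at position -121 from the RefSeq start and the pair of CACGNG boxes, 5 bases apart, at position -85. Such a pair, searched on both strands, was found in 16 of the 32851 windows, or 0.0487%. The palindromic box CACGTG, which can also form part of such a pair, begins at position -193 in *Arrdc4*, and was found in 7.15% of all windows. Among the windows of the 9 genes it was found in that of *Klf6*, at position -43.

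*Arrdc4* was at 33.7, 52.6 and 27.9 CPM in control and at 17.1, 32.6 and 29.9 CPM in MaeaCsf1r-Cre libraries. Its order over the libraries was close to that of *Txnip*, with control replicate 2 highest and MaeaCsf1r-Cre replicate 1 lowest. By root mean square difference of centred log2(CPM + 1) over the 6 libraries, *Arrdc4* ranked 31 among all tested genes in likeness to *Txnip*, at 0.198, and *Ccng2* ranked 146, at 0.276. The 3 most like were *9030619P08Rik* at 0.119, *Glis2* at 0.133 and *Ctsf* at 0.136, against a spread of *Txnip* itself of 0.632 on the same scale.

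*Ccng2* encodes cyclin G2, an unconventional cyclin linked to cell cycle arrest and induced by FoxO factors. It lies on chromosome 5 from 93267257 to 93276231. It was at 47.7, 66.9 and 33.4 CPM in control and at 25.8, 41.3 and 50.3 CPM in MaeaCsf1r-Cre libraries. In replicate 3 the MaeaCsf1r-Cre library was the higher one, by 0.58 on the log2(CPM + 1) scale, while in replicates 1 and 2 the differences were -0.86 and -0.68. The log2 fold change over all libraries was -0.32 ± 0.31 (SE), and it was -0.06 without MaeaCsf1r-Cre replicate 1 and -0.08 without control replicate 2.

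*Klf6*, a Kruppel-like zinc finger factor that responds early to growth and stress signals, lies on chromosome 13 from 5861482 to 5870394. It was at 24.9, 51.2 and 44.5 CPM in control and at 18.7, 36.9 and 46.0 CPM in MaeaCsf1r-Cre libraries. Replicate 1 was the lowest library within each group. *Klf6* had a log2 difference of -0.27 ± 0.37 (SE), and without MaeaCsf1r-Cre replicate 1 it lay above 0, at 0.10.

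**Figure D3:**
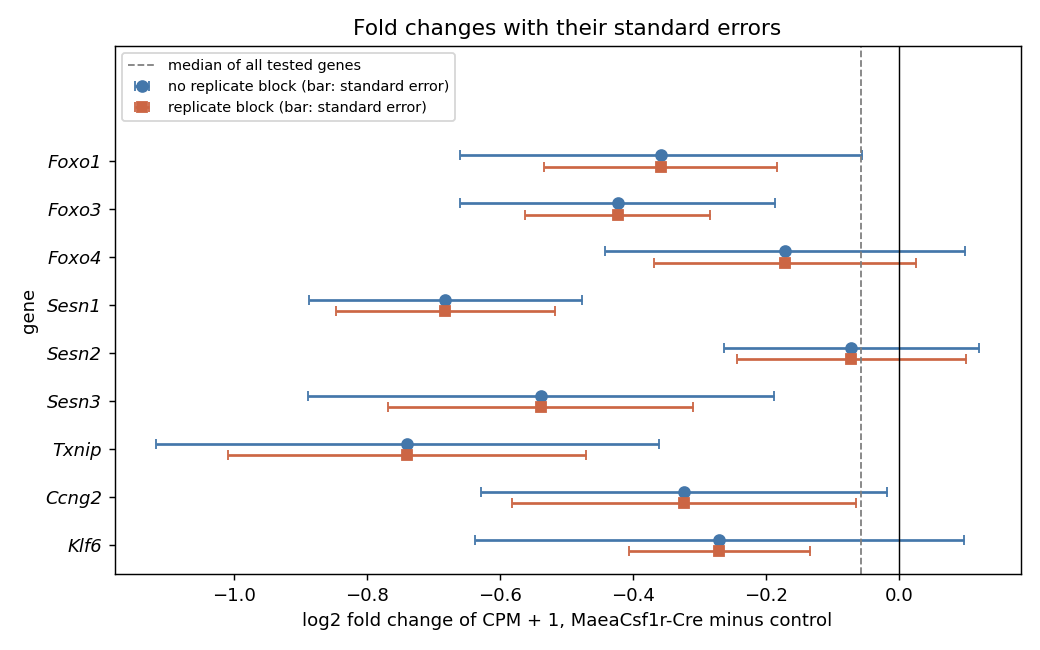
Log2 fold change of CPM + 1, MaeaCsf1r-Cre minus control (horizontal axis), for each of the 9 genes, with its standard error as a bar, in the fit without and with the replicate block, and with the median of all tested genes as a dashed line at -0.06. All 9 points lie below 0, and the bars with the block are shorter, at 0.14 for *Klf6* and 0.27 for *Txnip*.

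The differences within same-numbered libraries were not alike in the 3 pairs. In replicate 1 all 9 genes were lower in the MaeaCsf1r-Cre library, with a median log2 difference of -0.52, where 53.1% of all tested genes were lower. In replicate 2 all 9 were again lower, with a median of -0.68, where 68.1% of tested genes were lower. In replicate 3 only *Foxo3*, *Foxo4* and *Sesn1* were lower, and the median of the 9 genes was 0.05, where 48.7% of tested genes were lower. These 3 genes were therefore the ones lower in 3 of 3 pairs, against 23.5% of all genes tested.

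**Figure D4:**
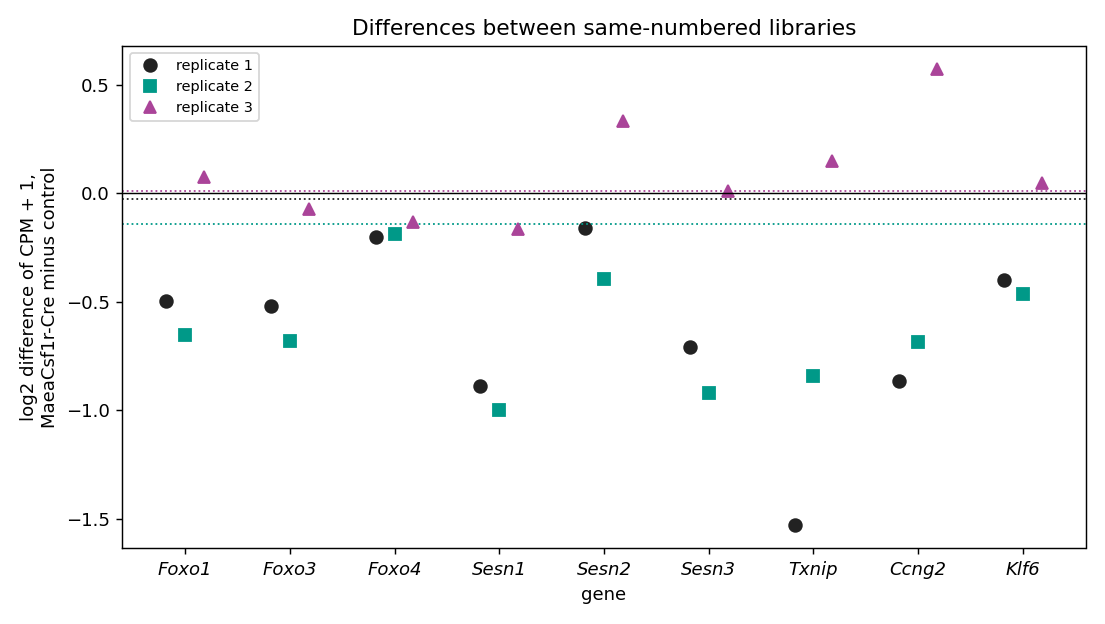
Log2 difference of CPM + 1 between the MaeaCsf1r-Cre and the control library of the same number (vertical axis) for each gene, 1 point for each replicate number, with the median over all tested genes in each pair as a dotted line of the same colour. Points of replicates 1 and 2 lie below 0 for all 9 genes, and those of replicate 3 lie between -0.16 for *Sesn1* and 0.58 for *Ccng2*.

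Across the 6 libraries, MaeaCsf1r-Cre replicate 1 was the lowest for 7 of the 9 genes, against 30.3% of all tested genes, and control replicate 2 was the highest for 8 of them, against 26.7%. Both held for 7 genes, *Foxo1*, *Foxo3*, *Sesn1*, *Sesn3*, *Txnip*, *Ccng2* and *Klf6*, against 16.2% of all tested genes. The same 2 libraries were the lowest and the highest in the summed HSC markers given above. Of those 10 markers 8 had log2 fold changes below 0, against 60.9% of all tested genes, and 0 passed. Their median was -0.47, against -0.36 for the 9 genes and -0.06 for all tested genes. With replicate 1 of both groups left out and the block kept, it was -0.39. At an unadjusted limma p under 0.05 with the block, 7 were lower and 1 higher. Of all 12955 tested genes, 1805 differed at that level with the block, and 1402 of these, or 10.8% of all, were lower. MaeaCsf1r-Cre replicate 1 was also the deepest library, with 60937000 reads behind its scaling. Every MaeaCsf1r-Cre library was deeper than every control library, at 44159000 to 60937000 reads against 32968000 to 39614000. Depth and genotype therefore cannot be told apart here. The part of HSC marker levels or of depth in the members' values was not tested. Without MaeaCsf1r-Cre replicate 1 the log2 fold change was -0.09 for *Foxo1*, -0.22 for *Foxo3*, -0.52 for *Sesn1* and -0.24 for *Sesn3*. Without control replicate 2 it was -0.21 for *Foxo1*, -0.23 for *Foxo3*, -0.32 for *Sesn3*, -0.48 for *Txnip* and -0.07 for *Klf6*. Without MaeaCsf1r-Cre replicate 3 it was -0.63 for *Foxo1*, -0.82 for *Sesn3* and -0.53 for both *Ccng2* and *Klf6*. With replicate 1 of both groups left out and the block kept, the median over the 9 genes was -0.29 and that of *Sesn1* was -0.58 (adjusted p = 0.803 from limma).

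Transcripts listed as markers of other cell types were detected in every library, though some lists rest on few genes. The 12 macrophage markers summed to between 33.3 and 73.5 CPM in control and between 5.92 and 58.6 CPM in MaeaCsf1r-Cre libraries, and all 7 that could be tested had log2 fold changes below 0. The complement genes *C1qa*, *C1qb* and *C1qc* were the 3 of them without overlap between the groups, at between 1.21 and 8.98 CPM in control and at 0.474 CPM or less in MaeaCsf1r-Cre libraries, and *C1qb* and *C1qc* passed the test when the length or the GC correction was joined to the block. *Adgre1*, *C1qa*, *Cd5l*, *Mertk* and *Timd4* were listed at 0 in both MaeaCsf1r-Cre replicates 1 and 2. The 11 B cell markers summed to between 33.9 and 55.4 CPM in control and between 13.9 and 27.0 CPM in MaeaCsf1r-Cre libraries. *Pax5*, *Ms4a1*, *Igll1* and *Vpreb2* were at 0 in all 6 libraries. Under 1 CPM in all 6 were 9 of the 11, so this sum rests mainly on *Cd79b* and *Ighm*. The 7 T cell markers summed to between 10.1 and 14.4 CPM and between 6.97 and 10.6 CPM. *Cd3g* and *Cd2* were at 0 in all libraries. As 5 of the 7 were under 1 CPM in all 6 libraries, this sum rests mainly on *Lck*. The 9 neutrophil and granule markers summed to between 76.8 and 302 CPM in control and between 76.0 and 164 CPM in MaeaCsf1r-Cre libraries. The 8 erythroid markers summed to between 196 and 537 CPM and between 244 and 507 CPM, and the 7 megakaryocyte markers to between 326 and 1388 CPM and between 401 and 782 CPM. The leading markers of these lists by mean level were *Vcam1* and *Axl*, *Cd79b* and *Ighm*, *Lck* and *Cd247*, *Mpo* and *Prtn3*, *Klf1* and *Epor*, and *Itga2b* and *Pf4*, and among these 12 genes *Ighm* was the 1 without overlap between the groups. The immunoglobulin gene *Ighm* was at 16.9, 29.5 and 7.51 CPM in control and at 0.279, 0.838 and 2.26 CPM in MaeaCsf1r-Cre libraries. In control replicate 3 the megakaryocyte markers, at 1388 CPM, came near the 1626 CPM of the HSC markers. Whether these transcripts came from HSCs or from other cells was not tested, nor was their part in the values of the 9 genes.

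Levels between the 9 genes were compared per kilobase of merged exons, as means over the 6 libraries. *Txnip* was the most abundant at 104 ± 44.4 CPM per kilobase, and *Sesn1* followed at 19.5 ± 5.87 CPM per kilobase (SD, n = 6 each). The range of *Txnip* did not overlap that of *Sesn1*, nor did that of *Sesn1* overlap that of the next gene. *Klf6* at 8.43, *Ccng2* at 8.10, *Foxo3* at 5.83 and *Sesn2* at 4.93 CPM per kilobase overlapped with their neighbours in this order. *Foxo1* at 2.03 CPM per kilobase was below *Sesn2* in every library. *Foxo4* at 0.405 and *Sesn3* at 0.296 CPM per kilobase were lowest and overlapped. On the longest transcript in place of merged exons their order turned, at 0.446 and 0.496 CPM per kilobase, as did that of *Klf6* and *Ccng2*, at 8.76 and 9.75 CPM per kilobase.

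**Figure D5:**
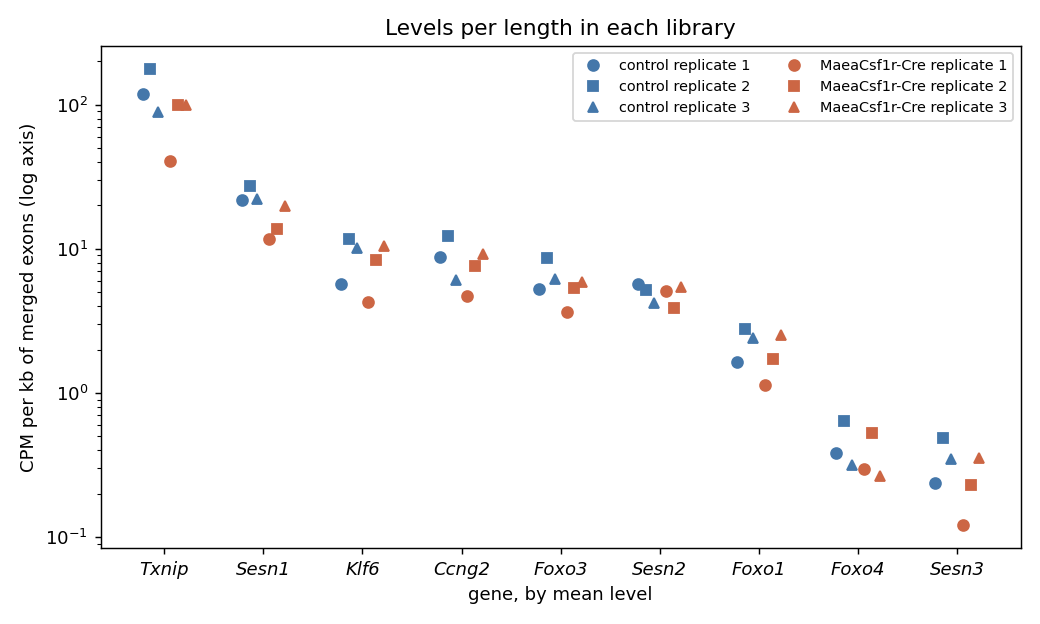
Level in CPM per kilobase of merged exons (vertical axis, log scale) in each library, with genes ordered by their mean over the 6 libraries and the groups set side by side. *Txnip* and *Sesn1* lie above the rest, *Klf6*, *Ccng2*, *Foxo3* and *Sesn2* overlap, and *Foxo4* and *Sesn3* lie lowest.

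Genes whose pattern over the 6 libraries was most like that of a member were found by the same root mean square difference. For *Foxo3*, whose own spread was 0.360 on this scale, these were *Camk2g* at 0.0284, *Celsr1* at 0.0438 and *Agap2* at 0.0469. For *Sesn1*, whose spread was 0.421, they were *Zfp955b* at 0.0602, *Ficd* at 0.0809 and *Prmt2* at 0.0811. Among the 9 genes *Foxo1* was the one most like *Foxo3*, at 0.163 and rank 547, and *Foxo3* the one most like *Sesn1*, at 0.206 and rank 264.

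Of the 26 upstream regulators of FoxO listed, from the phosphatidylinositol 3-kinase subunits and AKT kinases to 14-3-3 proteins and the deacetylase SIRT1, all 26 were tested and 0 passed. Their log2 fold changes were below 0 for 18, against 60.9% of all tested genes. Their median was -0.10, against -0.06 for all tested genes. *Sirt1*, which deacetylates FoxO proteins, was at 27.6, 30.2 and 29.5 CPM in control and at 22.5, 18.6 and 24.8 CPM in MaeaCsf1r-Cre libraries. The groups did not overlap for *Sirt1*, with a log2 fold change of -0.40 ± 0.16 (SE). *Ep300*, *Pdpk1* and *Stk4* were the other regulators without overlap, which made 4 of 26 against 6.06% of all tested genes. They encode an acetyltransferase, the kinase that activates AKT and a FoxO kinase, and their log2 fold changes were -0.28, -0.17 and -0.28.

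Among other known FoxO targets, 0 of 14 tested genes of cell cycle and death, 0 of 7 of oxidative stress, 0 of 9 of autophagy and atrophy, 0 of 6 of insulin and metabolism and 0 of 4 of lymphocytes passed. Log2 fold changes were below 0 for 8 of 14 (median -0.05), 3 of 7 (median 0.01), 9 of 9 (median -0.19), 4 of 6 (median -0.10) and 4 of 4 (median -0.35), against 60.9% of all tested genes. With replicate 1 of both groups left out and the block kept, the medians were 0.04, 0.01, -0.15, -0.17 and -0.13 in the same order. *Rbl2*, the pocket protein p130 of resting cells, was at 62.8, 79.4 and 62.4 CPM in control and at 47.5, 46.8 and 61.7 CPM in MaeaCsf1r-Cre libraries, without overlap. *Ccnd1*, a cyclin that FoxO factors repress, had a log2 fold change of -0.61 ± 0.33 (SE) and overlapped. *Prdx5*, a peroxiredoxin, was at 50.4, 56.4 and 55.8 CPM in control and at 42.2, 49.0 and 45.2 CPM in MaeaCsf1r-Cre libraries, without overlap.
*Sepp1*, a selenium carrier, had a log2 fold change of -0.69 ± 0.41 (SE). In the autophagy list *Atg14*, a subunit of the Beclin 1 complex, was at 22.7, 30.7 and 22.0 CPM in control and at 16.1, 21.7 and 21.3 CPM in MaeaCsf1r-Cre libraries, and *Fbxo32*, the ubiquitin ligase atrogin-1, had a log2 fold change of -0.52 ± 0.33 (SE). The values of *Atg14* did not overlap, and those of *Fbxo32* did. *Rictor*, a core subunit of mTORC2, was at 32.9, 42.7 and 33.2 CPM in control and at 28.0, 32.1 and 28.4 CPM in MaeaCsf1r-Cre libraries, without overlap. *Insr*, the insulin receptor, had a log2 fold change of -0.38 ± 0.23 (SE), *Btg1*, an antiproliferative factor, of -0.34 ± 0.19 (SE), and *Klf2*, a factor of quiescent lymphocytes, of -0.70 ± 0.39 (SE). Without MaeaCsf1r-Cre replicate 1 the log2 fold changes were -0.32 for *Ccnd1*, -0.29 for *Sepp1*, -0.20 for *Atg14*, -0.13 for *Fbxo32*, -0.24 for *Insr*, -0.19 for *Btg1* and -0.27 for *Klf2*. Without MaeaCsf1r-Cre replicate 3 they were -1.18 for *Sepp1* and -0.61 for *Insr*, and without control replicate 2 they were -0.18 for *Atg14* and -0.16 for *Rictor*.

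The 21 tested partners and regulators of sestrins, which include the GATOR and Rag GTPase genes, had 10 log2 fold changes below 0 and 11 above, with a median of 0.03, and 0 passed. The median was -0.0024 with replicate 1 of both groups left out and the block kept. *Atf4*, the stress-response factor that induces *Sesn2*, was at 44.3, 60.8 and 55.6 CPM in control and at 72.7, 79.8 and 53.1 CPM in MaeaCsf1r-Cre libraries. It overlapped through replicate 3, with a log2 fold change of 0.34 ± 0.19 (SE). *Ddit3*, which encodes the stress factor CHOP, was at 8.01, 9.74 and 9.78 CPM in control and at 10.97, 10.1 and 10.5 CPM in MaeaCsf1r-Cre libraries. It was the 1 gene of all these lists that was higher without overlap, and the share of all tested genes that were so was not worked out. The log2 fold change of *Ddit3* was 0.18 ± 0.17 (SE), with a limma p of 0.317 without the block. *Tsc1*, a subunit of the complex that inhibits mTORC1, had a log2 fold change of -0.31 ± 0.20 (SE), which was -0.15 without MaeaCsf1r-Cre replicate 2 and -0.17 without control replicate 2. That of *Atf4* was between 0.21, without control replicate 1, and 0.51, without MaeaCsf1r-Cre replicate 3.

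Of the 12 tested partners of *Txnip* and alpha-arrestins, 8 had log2 fold changes below 0, against 60.9% of all tested genes. Their median was -0.08, and 0 passed. *Slc2a3*, a glucose transporter, was at 98.4, 105 and 108 CPM in control and at 74.2, 85.6 and 95.8 CPM in MaeaCsf1r-Cre libraries, without overlap. *Arrdc3*, an alpha-arrestin, was at 29.2, 20.5 and 30.03 CPM in control and at 11.3, 14.4 and 27.0 CPM in MaeaCsf1r-Cre libraries, and overlapped. Its log2 fold change was -0.64 ± 0.31 (SE), and -0.39 without MaeaCsf1r-Cre replicate 1 or -0.98 without replicate 3. Of the 3 tested genes near *Ccng2* in the cyclin family, *Ccng1*, a p53 target, had a log2 fold change of -0.32 ± 0.17 (SE) and *Ccni* of -0.22 ± 0.14 (SE), with a list median of -0.22. *Ccng1* was at -0.18 without MaeaCsf1r-Cre replicate 2, and *Ccni* at -0.13 without control replicate 2 and at -0.33 without MaeaCsf1r-Cre replicate 3. Of the 11 tested Kruppel-like factors 7 had log2 fold changes below 0, with a median of -0.19, and *Klf12* was at -0.69 ± 0.38 (SE), or at -0.35 without MaeaCsf1r-Cre replicate 1. Over all these lists and the immediate early genes, 125 genes other than the 9 members were tested and 0 passed with or without the block. Log2 fold changes were below 0 for 84, or 67.2%, against 60.9% of all tested genes, and above 0 for 41. The groups did not overlap, with MaeaCsf1r-Cre lower, for 9, or 7.2%, against 6.06%. An unadjusted limma p under 0.05 with a lower level was found for 4, or 3.2%, against 3.19%, and with the block for 21, or 16.8%, against 10.8%.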

How the data were processed

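RNA of sorted HSCs was sequenced from 3 control and 3 MaeaCsf1r-Cre pools. Libraries were made with SMART-Seq v4 and Nextera XT, which do not mark strand. Per the submitters' processing notes the authors trimmed reads with Trim Galore, aligned them to mm10 with STAR 2.5.3a and quantified and normalised them in Partek. The deposited values are CPM, to which 0.0001 had been added, here taken off again. The reads behind the scaling, read from the steps between low values, were 32968000 to 39614000 in control and 44159000 to 60937000 in MaeaCsf1r-Cre libraries. Of low values 75.9 to 78.1% were whole reads within 0.05 read, so reads were not recovered and no count test was used. The level of 3 reads covers counting error only.

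Each gene at or above 1 CPM in at least 3 libraries was fitted on log2(CPM + 1) with limma 3.58.1 (R 4.3.3), with a mean-variance trend and no covariate, two-sided. Fold changes on this scale understate those of low genes. The replicate numbers come from the sample titles. Same-numbered libraries of the groups deviated together (Pearson's r across genes of 0.627, 0.523 and 0.397, against -0.459 to -0.0538 for other pairs). The replicate number was therefore also used as a block. Deviations from a group mean cancel within each group, so positive values for same-numbered pairs force lower ones among the other pairs. Alternatives were median-ratio scaling, quantile normalization, a pseudocount of 0.1, a filter at 10 CPM or none, no trend, loess corrections for length and GC content (span 0.5) with and without the block, and each library left out in turn. Positions and exon lengths are from the GENCODE annotation of GRCm38, later than that used by the authors. The p-values measure the spread between these pools. Values marked SE are standard errors from limma. The fit was checked on simulated data. Python 3.11.15, pandas 2.3.3 and matplotlib 3.10.9 were used for tables and figures.

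The members and gene lists were chosen with earlier results of these data known. Genes named besides the members were, from each pathway list, the 2 with the smallest unadjusted p, from each marker list the 2 with the highest mean CPM, and the 3 genes most like *Foxo3*, *Sesn1* and *Txnip*. *Arrdc4*, *Foxo6*, *Ddit3*, *Ep300*, *Pdpk1*, *Stk4*, the *C1q* genes and the markers listed at 0 were added after their values were seen. The values of 2 genes that this rule names are not reported here.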

Additional observations from a re-analysis of the deposited data

How the results depend on the processing

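Of 160 alternatives for the 9 genes 0 brought an adjusted p of a gene under 0.05, and the smallest was 0.187. The sign turned in 9 of them. The log2 fold change of *Sesn2* was 0.035 after quantile normalization, 0.012 with the length correction and 0.0028 with the GC correction, both corrections with or without the replicate block. Leaving out each library in turn gave it between -0.187 and 0.061, with 0.015 without control replicate 1 and the highest value without MaeaCsf1r-Cre replicate 2. The same gave *Foxo4* between -0.345 and 0.0071, highest without control replicate 2, and *Klf6* between -0.574 and 0.096, highest without MaeaCsf1r-Cre replicate 1. Over the whole table the same gave between 0 and 3 genes called in place of 1, with 0 without control replicate 2 or 3 and 3 without MaeaCsf1r-Cre replicate 3. There were 0 at a filter of 10 CPM, where *Foxo4* and *Sesn3* were no longer tested, and 0 with replicate 1 of both groups left out under the replicate block, an alternative chosen after seeing the data. The length or the GC correction together with the replicate block gave 13, and the replicate block alone gave 1. For *Maea* and the genes named from the pathway lists, 394 alternatives gave 0 turned signs, but sizes moved by over 1.5 times. The length correction gave *Rictor* -0.084 in place of -0.28, *Insr* -0.19 in place of -0.38 and *Tsc1* -0.14 in place of -0.31. It gave *Slc2a3* -0.15 in place of -0.29 and *Rbl2* -0.25 in place of -0.39. Of the 9 genes it gave *Foxo1* -0.21 in place of -0.36, *Foxo3* -0.28 in place of -0.42 and *Foxo4* -0.088 in place of -0.17. It gave *Sesn3* -0.35 in place of -0.54, *Ccng2* -0.21 in place of -0.32 and *Klf6* -0.17 in place of -0.27. *Sesn1* was at -0.59 in place of -0.68 and *Txnip* at -0.66 in place of -0.74. The median over all tested genes was 0.03 in place of -0.06. A pseudocount of 0.1 gave *Klf2* -1.25 and *Klf12* -1.15, in place of -0.70 and -0.69. The causes were not tested. The precision is set by 3 libraries in each group, made from pooled mice.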

Other observations

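Immediate early genes, which respond within minutes to growth and stress signals, were listed beside *Klf6*. Of the 13 tested, 0 passed and 12 had log2 fold changes below 0, against 60.9% of all tested genes. The median was -0.39, against -0.06 for all tested genes. It was -0.20 with replicate 1 of both groups left out and the replicate block kept. Their summed level was 496, 1123 and 697 CPM in control and 275, 744 and 779 CPM in MaeaCsf1r-Cre libraries. *Egr1*, a zinc finger factor of this class, was at 36.3, 136 and 60.5 CPM in control and at 17.5, 50.2 and 71.9 CPM in MaeaCsf1r-Cre libraries, and *Fosb*, an AP-1 subunit, at 7.67, 17.8 and 13.3 CPM and at 2.67, 12.8 and 8.91 CPM. Without MaeaCsf1r-Cre replicate 1 the log2 fold change of *Egr1* was -0.15 in place of -0.73 and that of *Fosb* was -0.18 in place of -0.74, and without control replicate 2 they were -0.22 and -0.48. For both genes control replicate 2 was the highest library and MaeaCsf1r-Cre replicate 1 the lowest, as for 7 of the FoxO, sestrin and linked genes.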
